A study of Mus musculus with 2 samples.

Results

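The genes described here are the microRNA (miRNA) genes of miR-219 and miR-338 and the hairpin genes annotated on the opposite strand of the same 3 loci. They were picked out by symbol in the GENCODE M21 annotation, and the rule uses no measured value. They number 6 of the 2202 miRNA genes in the tables: Mir219a-2 with Mir219b, Mir219a-1 with Mir219c, and Mir338 with Mir3065. Short RNA (size range below 30 in the labels) was sequenced from hippocampal tissue of female B6CASTF1/J mice 25 days old, a first-generation cross of C57BL/6J and CAST/EiJ with no treatment named in the labels. Both libraries belong to 1 group, biological replicates 1 and 2, so the only comparison the design allows is between replicates, and it tests no condition. The tissue is labelled as a hippocampal layer that is not named. Main-strand reads at miRNA genes numbered 5481053 in replicate 1 and 4266963 in replicate 2, and levels below are counts per 1000000 of these reads (CPM).

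Oligodendrocytes wrap axons in myelin, and they arise from dividing precursor cells that must leave the cell cycle and mature. miR-219 and miR-338 rise as precursors mature and are known to repress genes that keep them immature, among them Pdgfra and Sox6. Mice whose oligodendrocyte lineage cannot process miRNAs myelinate poorly, and miR-219 is known to restore part of that maturation. A miRNA recognises its targets mainly through its seed, bases 2 to 8 from its 5′ end. A hairpin precursor can give a mature product from its 5′ arm (5p), its 3′ arm (3p) or both.

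The mature products show which of these genes could act on the same targets and which reads can be told apart. RefSeq (GRCm38.p6, the assembly of mm10) matched all 6 hairpins at the GENCODE coordinates and gave 9 distinct mature names with 9 distinct seeds. It held no 3p entry for Mir219a-2 or Mir3065, so any 3p product of these 2 genes is not listed. They are written 5′ to 3′ with the seed in capitals.
miR-219a-5p: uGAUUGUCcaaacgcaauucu
miR-219a-1-3p: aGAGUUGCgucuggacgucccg
miR-219b-5p: aGAUGUCCagccacaauucucg
miR-219b-3p: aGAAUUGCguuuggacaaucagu
miR-219c-5p: gGACGUCCagacgcaacucucg
miR-219c-3p: cGAGAAUUgcguuuggacaauc
miR-338-3p: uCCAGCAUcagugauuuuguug
miR-338-5p: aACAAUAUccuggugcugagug
miR-3065-5p: uCAACAAAaucacugaugcugg
miR-219a-5p is the product of both Mir219a-1 and Mir219a-2. No other mature miRNA in the RefSeq table had a seed identical to any of these 9. The products on the opposite strand read the complement of the same bases: miR-219b-3p overlaps all 21 bases of miR-219a-5p at the Mir219a-2 locus, miR-219c-3p overlaps 20 of them at the Mir219a-1 locus, and miR-3065-5p overlaps 21 of the 22 bases of miR-338-3p. Their seeds differ from those of the products they overlap.

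The hairpins of the 2 miR-219a genes show why their counts cover only part of their output. The longest stretch they have in common is in capitals.
Mir219a-2: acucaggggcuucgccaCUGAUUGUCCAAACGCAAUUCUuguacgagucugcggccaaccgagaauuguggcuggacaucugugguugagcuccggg
Mir219a-1: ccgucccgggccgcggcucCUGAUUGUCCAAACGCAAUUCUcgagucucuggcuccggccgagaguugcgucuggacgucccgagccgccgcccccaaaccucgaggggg
The common stretch is 22 bases long and holds the whole of miR-219a-5p, which has 21 bases. A read of exactly that product therefore matches both loci, and the tables put a read with several matches in no gene. Such reads made up 41.9% of the replicate 1 table and 46.4% of the replicate 2 table, over all miRNAs and other RNA. What the counts of Mir219a-1 and Mir219a-2 can hold is reads of the 3′ arm and reads of the 5′ arm that run past the common stretch, and the tables do not separate arms. The values of these genes are therefore no measure of total miR-219a-5p. Mir219b had 1 stretch of 22 bases, its bases 43 to 64, in common with Mir219a-1 on the opposite strand. Mir219b reads within that stretch would likewise be in no gene. Mir219c, Mir338 and Mir3065 had no stretch of 22 bases in common with a miRNA gene at another locus.

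Each opposite-strand gene lies inside the gene it faces. Mir219a-2 (ENSMUSG00000065485.1) is on the minus strand at chr2:29845631-29845727 in mm10, between the coding genes Urm1, which ends 629 bases away, and Cercam. Mir219b (ENSMUSG00000105010.1) is its reverse complement over 65 of its 97 bases (chr2:29845647-29845711, plus strand). Mir219a-1 (ENSMUSG00000065555.1) is on the minus strand at chr17:34024983-34025092, where 88 of its 110 bases overlap an exon of the lincRNA Gm26940 on the same strand. Its nearest coding genes are Ring1, 303 bases away, and H2-Ke6, 941 bases away. Mir219c (ENSMUSG00000105964.1) covers 60 of those bases on the plus strand (chr17:34025012-34025071). Mir338 (ENSMUSG00000065600.1) is on the minus strand at chr11:120014765-120014862 in an intron of Aatk, a kinase gene expressed in the nervous system that is transcribed from the same strand. Mir3065 (ENSMUSG00000105524.1) covers 87 of its 98 bases on the plus strand (chr11:120014767-120014853).

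**Figure D1:**
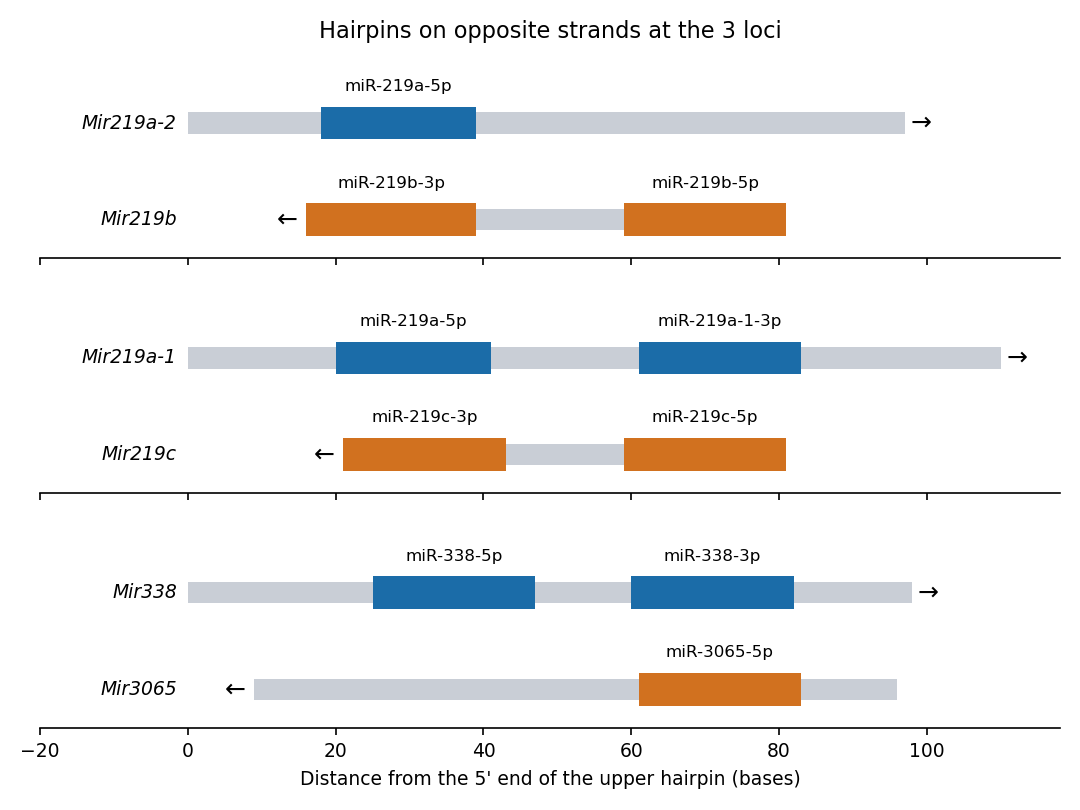
The 3 loci drawn to scale, with distance in bases from the 5′ end of the upper hairpin on the x axis and the transcription direction as arrows. Grey bars are hairpin genes and coloured bars RefSeq mature products, with no 3p entry for Mir219a-2 or Mir3065. Each lower hairpin (65, 60 and 87 bases) lies within the span of the upper one (97, 110 and 98 bases).

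Mir219a-2 had the most counted reads of the 6 genes in replicate 1 and Mir338 in replicate 2, and the 3 opposite-strand genes were at or near 0 in both. Mir219a-2 had 27187 counts in replicate 1 (4960 CPM, with an exact 95% interval of 4902 to 5019) and 509 in replicate 2 (119 CPM, 109 to 130). It ranked 40 of 2202 miRNA genes in replicate 1 and 218 in replicate 2, with a mean of 2540 ± 3423 CPM (SD, n = 2), so its SD exceeded its mean. Mir338 had 8388 counts (1530 CPM, 1498 to 1563) and 3263 (765 CPM, 739 to 791). Its mean was 1148 ± 541 CPM (SD, n = 2) and its ranks were 86 and 122. Its SD was the smallest of the 3 detected genes relative to the mean. Mir219a-1 had 68 counts in replicate 1 (12.4 CPM, 9.63 to 15.7) and 234 in replicate 2 (54.8 CPM, 48.04 to 62.3), a mean of 33.6 ± 30.0 CPM (SD, n = 2) and ranks of 309 and 250. The order of the means, Mir219a-2 over Mir338 over Mir219a-1, was that of replicate 1. In replicate 2 Mir338 stood above Mir219a-2, and Mir219a-1 was the lowest of the 3 in both. The means of Mir219a-2 and Mir338 did not differ beyond their spread, since the order turned between the libraries. PCR can copy 1 molecule into many reads, so all intervals cover the error of counting alone. In tissue RNA, fewer oligodendrocytes and less of a miRNA per cell cannot be told apart.

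**Figure D2:**
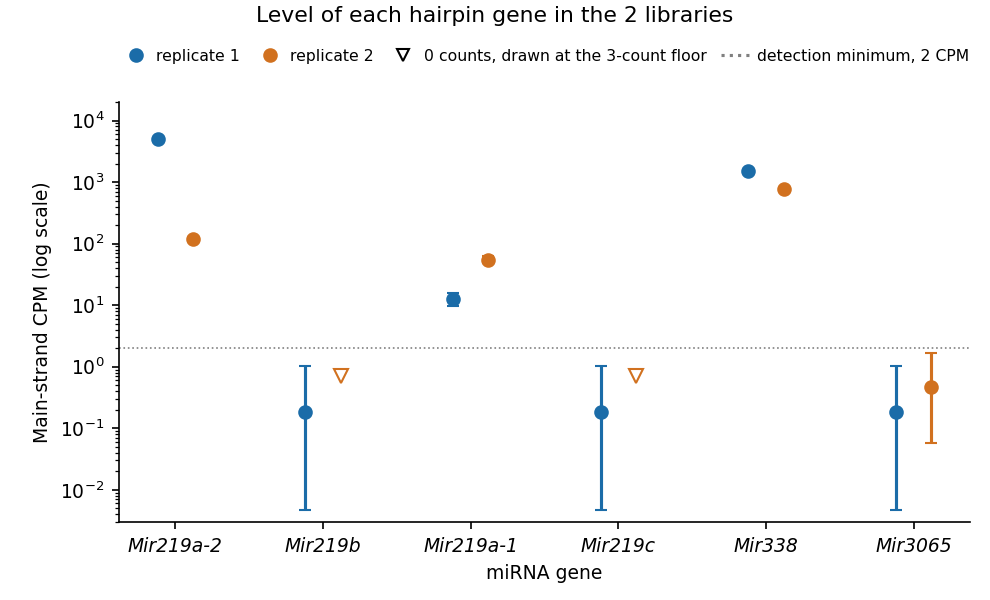
Main-strand CPM (log scale) of the 6 genes in replicate 1 (blue) and replicate 2 (orange), with exact 95% counting intervals. Mir219a-2, Mir219a-1 and Mir338 lie above the detection minimum of 2 CPM in both libraries, and Mir219b, Mir219c and Mir3065 lie below it, with 0 counts drawn as open triangles at 3 counts.

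The opposite-strand genes had almost no counted reads of their own, and reads that match several places are in none of these counts. Mir219b and Mir219c each had 1 count in replicate 1 (0.182 CPM) and 0 in replicate 2, where 0 allows up to 0.703 CPM (3 counts). Mir3065 had 1 count in replicate 1 and 2 in replicate 2 (0.469 CPM). All 3 were therefore at or under the 3-count floor in both libraries and no fold is given for them. Of the reads at the Mir338 and Mir3065 pair, Mir338 held 99.99% in replicate 1 (99.93 to 100, exact 95% Clopper-Pearson limits) and 99.94% (99.78 to 99.99) in replicate 2. Mir219a-2 held 27187 of 27188 reads of its pair in replicate 1 and all 509 in replicate 2, where 3 counts would be 0.589% for Mir219b. Mir219a-1 held 68 of 69 and all 234, and with so few reads Mir219c could hold up to 7.81% in replicate 1 by the exact interval and 1.28% in replicate 2 (3 counts). The counted reads of the 3 loci thus came almost wholly from 1 strand at this depth, the strand of the miR-219a and miR-338 hairpins.

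Such one-sidedness was common among overlapping miRNA genes. The annotation holds 32 pairs of miRNA genes that overlap on opposite strands, of which 24 had at least 100 counts in each library, among them the Mir219a-2 and Mir338 pairs. In 22 of the 24, the same gene held more than 99% of the pair in both libraries. The exceptions, named here after their values were seen, were Mir24-1 with Mir3074-1 and Mir486 with Mir3107. Mir24-1 had 261 counts against 46 for Mir3074-1 in replicate 1, and 30 against 150 in replicate 2, so the gene with more reads changed. Mir486 held 92.3% and 99.5% of its pair.

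The 3 columns of each deposited table show what the overlap does to the counts. The column read as the other strand gave Mir219b 27186 counts in replicate 1 and 509 in replicate 2, 1 fewer than the main-strand reads of Mir219a-2 in replicate 1 and the same number in replicate 2. It gave Mir3065 8388 and 3263 counts, equal to the main-strand counts of Mir338, and Mir219c 65 and 234 against 68 and 234 for Mir219a-1. The column read as counts without strand held 1 read for Mir219a-2, 3 for Mir219a-1 and none for the other 4 genes in replicate 1, and none for any of the 6 in replicate 2. Reads that overlap 2 genes are set aside there as ambiguous, and the 6 genes account for 35642 of its 418831 ambiguous reads in replicate 1 (8.51%) and 4008 of 252905 in replicate 2 (1.58%). A count without strand would therefore list miR-219 and miR-338 genes as nearly absent from this tissue, and the other strand would list Mir219b as abundant. Mir219a-1 has 50 bases that Mir219c leaves uncovered, and 3 of its 68 reads in replicate 1 were assigned without strand.

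**Figure D3:**
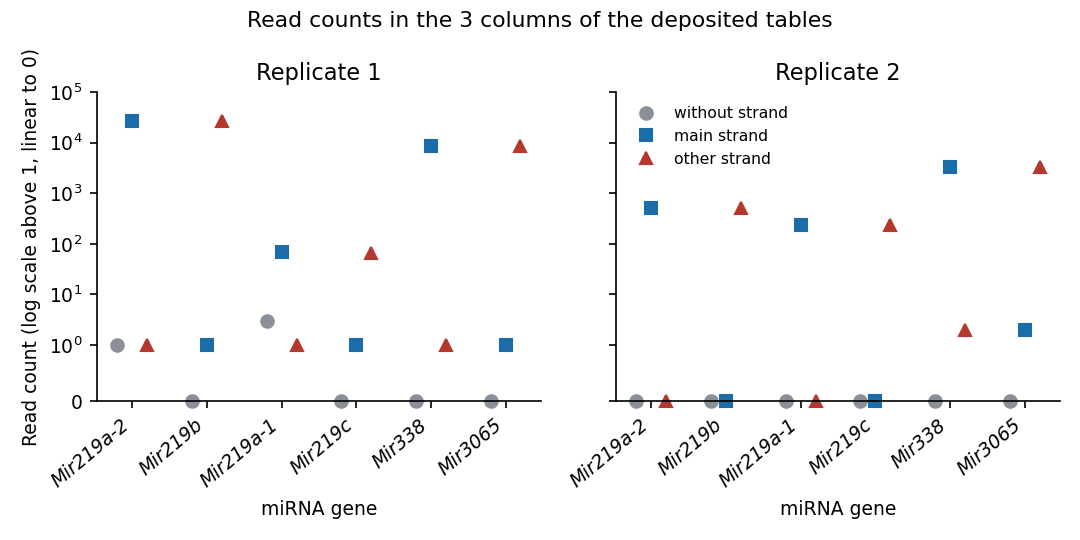
Read counts of the 6 genes in the 3 value columns of each table (log scale above 1, linear below). Main-strand counts (blue squares) of Mir219a-2, Mir219a-1 and Mir338 recur, to within 3 reads, as other-strand counts (red triangles) of the gene that faces each, and counts without strand (grey circles) do not exceed 3.

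Between the replicates, Mir219a-2 was lower in replicate 2, Mir219a-1 was higher and Mir338 was lower by a smaller factor. All 3 differed by at least 2-fold, which was true of 43.4% of the 433 miRNA genes with at least 2 CPM in each library, so passing 2-fold does not set these genes apart. Mir219a-2 was 41.6-fold lower in replicate 2 (38.1 to 45.5), the lowest ratio among the 433. That ranking leaves out genes that fell under 2 CPM in replicate 2. Mir1247 is such a gene and fell further (148 and 1.64 CPM, log2 ratio -6.49). Mir338 was 2.00-fold lower, and its interval of 1.92 to 2.08 includes 2-fold, so it stands at the limit. Among the 433 genes, 15.7% were at least 2-fold lower in replicate 2. Mir219a-1 was 4.42-fold higher (3.36 to 5.88), rank 37 from the highest, in a direction in which 27.7% of the 433 passed 2-fold. At 4-fold, Mir219a-2 and Mir219a-1 still passed and Mir338 did not, where 15.5% of the 433 genes passed in either direction, 5.08% lower and 10.4% higher in replicate 2. On the log2 scale the 3 differences were -5.38 for Mir219a-2, -1.0 for Mir338 and 2.14 for Mir219a-1, and the median over all 433 genes was 0.27. Of the 188 genes past 2-fold, 63.8% were higher in replicate 2, against 46.6% with edgeR's TMM scaling and 46.0% with DESeq2 size factors. The direction of each of the 3 genes was unchanged with both. The DESeq2 size factor was 1 for each library, so that setting compares the raw counts.

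**Figure D4:**
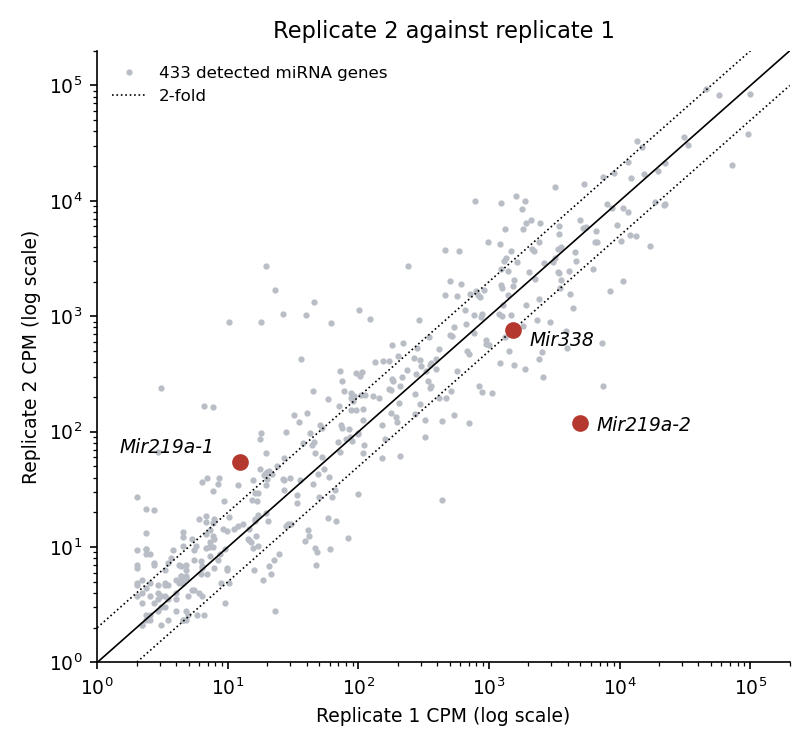
CPM in replicate 2 against replicate 1 (log scales) for the 433 detected miRNA genes, with the line of equality and dotted lines at 2-fold. Mir219a-2 (4960 and 119 CPM) lies far below the 2-fold band, Mir338 (1530 and 765) on its lower edge and Mir219a-1 (12.4 and 54.8) above it.

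Ratios within a library need no scaling between libraries, and they turned as well. For each read of Mir338 there were 3.24 of Mir219a-2 in replicate 1 (3.16 to 3.32) and 0.156 in replicate 2 (0.142 to 0.171). Mir338 exceeded Mir219a-2 by 6.41-fold in replicate 2 (5.84 to 7.05). Mir219a-2 counts leave out reads of exactly miR-219a-5p, so these are ratios of counted reads and not of the mature miRNAs. Of the reads at the 2 miR-219a genes, Mir219a-1 held 0.249% in replicate 1 (0.194 to 0.316) and 31.5% in replicate 2 (28.2 to 34.97). The reads that tell these loci apart thus came almost wholly from Mir219a-2 in replicate 1 and from both in replicate 2. The RefSeq mature products of these genes are 21 to 23 bases long, so no length scaling was made.

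Copies of a miRNA gene usually had similar replicate ratios, and the miR-219a copies did not. Of 21 pairs of detected genes whose symbols differ only in the copy number, a comparison added after the values were seen, the miR-219a pair differed most, by 7.52 on the log2 scale. The median of the other 20 pairs was 0.51, and 14 of them differed by less than 1. The pair nearest to miR-219a was Mir181a-1 with Mir181a-2, at 3.77. These were the only pairs of the 21 in which the copies passed 2-fold in opposite directions. Reads of a mature sequence that copies have in common are in no count, so these values describe the remaining reads.

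**Figure D5:**
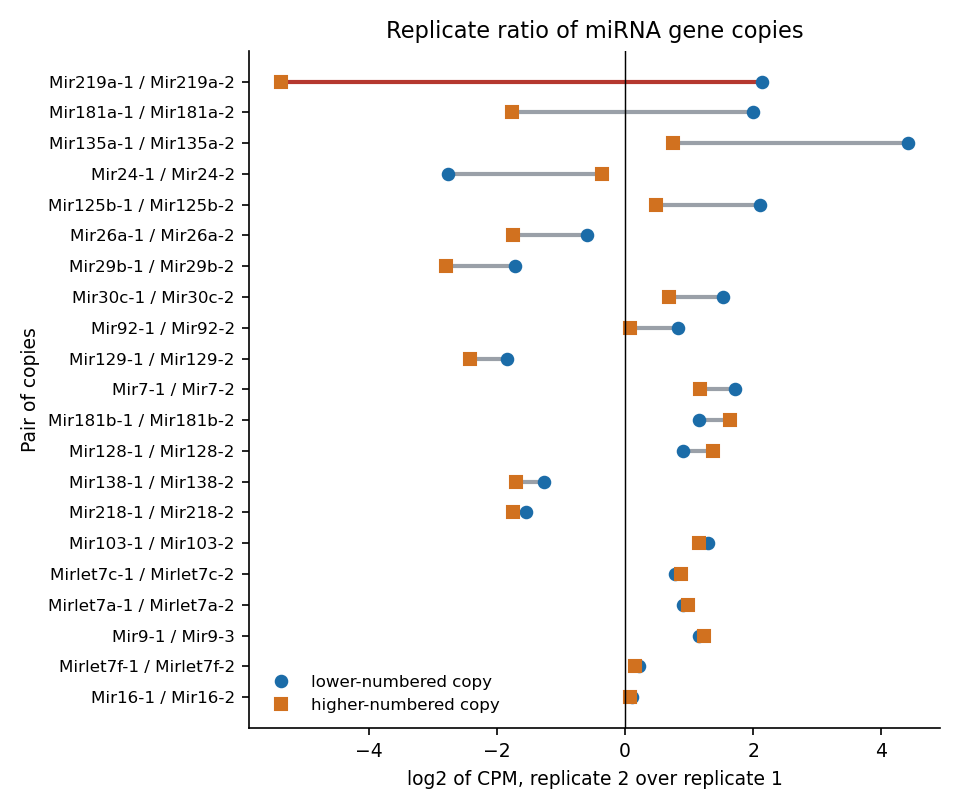
Log2 of replicate 2 over replicate 1 CPM for 21 pairs of miRNA gene copies, with the lower-numbered copy as a blue circle and the higher-numbered copy as an orange square. The miR-219a pair (red line) spans 2.14 to -5.38, and most other pairs lie close together.

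The genes with the pattern most like Mir219a-2, by distance over log2(CPM + 1) in the 2 libraries, were Mir29a (7438 and 248 CPM, distance 1.20), Mir346 (2597 and 298 CPM, 1.61) and Mir129-2 (1867 and 348 CPM, 2.09). None of these lay as low in replicate 2. For Mir338 they were Mir27b (1825 and 819 CPM, distance 0.27), Mir666 (1322 and 661 CPM, 0.30) and Mir341 (1472 and 1027 CPM, 0.43). Mir338 had close neighbours on this measure and Mir219a-2 had none within 1 log2 unit. In mean CPM, Mir219a-2 stood between Mir370 (2571 CPM) and Mir874 (2321 CPM), and Mir338 between Mir140 (1160 CPM) and Mir28a (1139 CPM). With 2 libraries, likeness of pattern rests on 2 values.

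Other miRNAs with a reported role in the oligodendrocyte lineage were divided. Of 21 such genes 18 were detected. Of these, 7 were at least 2-fold higher in replicate 2, 4 at least 2-fold lower and 7 within 2-fold. Over all 433 genes, 27.7% were at least 2-fold higher and 15.7% at least 2-fold lower. The median log2 ratio of the 18 was -0.12 against 0.27 over all 433. With TMM or DESeq2 scaling 4 of the 18 were higher and 5 lower. Among the 433, 82 were higher and 94 lower with TMM, and 81 and 95 with DESeq2 size factors. The 4 with the highest mean were Mir125a (19548 and 18000 CPM), Mir23b, which targets the nuclear lamina gene Lmnb1 (21824 and 9122 CPM), Mir23a (6479 and 4361 CPM) and Mir17, of a cluster that promotes precursor growth (782 and 9932 CPM). Mir17 was 12.7-fold higher in replicate 2 (12.3 to 13.1), Mir23b 2.39-fold lower (2.37 to 2.42), and Mir125a and Mir23a differed by less than 2-fold. These genes are expressed in many cell types.

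Marker lists of other cells also held genes that differed between the libraries, though not always in 1 direction. Over all 433 detected genes, 27.7% were at least 2-fold higher and 15.7% at least 2-fold lower in replicate 2. With TMM these were 82 and 94 genes, and with DESeq2 size factors 81 and 95. In the neuronal list 10 of 12 genes were detected, of which 3 were at least 2-fold higher in replicate 2 and 5 at least 2-fold lower (2 and 5 with TMM or DESeq2 scaling), with a median log2 ratio of -0.52. Its share of counts was nevertheless 5.25% in replicate 1 and 7.97% in replicate 2. Mir132 led the list in replicate 1 (17142 and 4038 CPM) and Mir149 in replicate 2 (13509 and 32894 CPM). In the microglia and immune list all 4 genes were detected. Mir142, Mir155 and Mir223 were at least 2-fold higher in replicate 2 and Mir150 was lower, or 1 higher and 1 lower with either other scaling. Its share was 0.131% and 0.0600%, most of it Mir150 (1215 and 397 CPM). The 3 endothelial and mural genes, led by Mir126a, were all within 2-fold, with 1 lower under either other scaling, and held 2.20% and 1.29%. All 6 detected genes of the 7 in the epithelial list were at least 2-fold higher in replicate 2 under all 3 scalings. Mir141, the gene not detected, was under 2 CPM in replicate 1 alone (0.730 and 131 CPM). The list held 0.0111% and 0.627%, led by Mir203 in replicate 1 and by Mir200c in replicate 2. The 3 oligodendrocyte genes held 0.650% and 0.0939%, most of it Mir219a-2 in replicate 1 and Mir338 in replicate 2. The part of these differences in those of Mir219a-2 and Mir338 was not tested.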

How the data were processed

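Read counts per miRNA gene were deposited by the authors as 1 table per library, with reads placed on mm10 and counted over GENCODE M21, per the deposited text beside each table. The sources used here do not give the aligner, the adapter trimming or the strand settings. No source names the 3 value columns. The middle one was read as the main strand, since its total over gene rows far exceeds that of the last, the other strand. The first was read as without strand, since it alone has ambiguous reads. The 4 rows that name no gene (unmapped 17.1% and 17.2%, several places 41.9% and 46.4%, no gene 5.56% and 5.17% of reads, and ambiguous) stayed out of totals.

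CPM used the main-strand total over gene rows (5481053 and 4266963). Replicate ratios carry exact 95% intervals from the split of the 2 counts. They were checked only on simulated counts with counting error alone, which leaves out PCR copies and variation between libraries. A gene was called at 2-fold when it had at least 2 CPM in each library. With 1 library on each side no p-value was computed. A count of 0 allows 3 counts (0.547 and 0.703 CPM). All 2202 identifiers matched GENCODE. RefSeq sequences came from GRCm38.p6, and stretches of 22 bases were compared between miRNA genes on either strand. Alternatives were TMM (edgeR 4.0.16), DESeq2 1.42.0 size factors (1 in each library), other totals, other columns, other detection limits and a fold of 4. RNAfold 2.7.2 predicted hairpin folds.

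The rule for the members uses symbols alone, but members and lists were chosen with earlier results of these data known. The lists were oligodendrocyte, other oligodendrocyte lineage, neuron, microglia and immune, endothelial and mural, and epithelial. The genes named by rule are the 6 members, the 3 nearest in pattern to Mir219a-2 and to Mir338, their neighbours in mean CPM, and at most 4 genes of a list by mean CPM.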

Additional observations from a re-analysis of the deposited data

How the results depend on the processing

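The direction of the Mir219a-2, Mir338 and Mir219a-1 replicate differences held under every scaling and with both strands summed. The log2 ratio of Mir219a-2 was -5.74 with TMM, -5.74 with DESeq2 size factors, -5.56 over all reads in the table and -5.54 without the 25 most abundant genes in the total. For Mir338 these were -1.36, -1.36, -1.18 and -1.16. Each scaling moves all log2 ratios by 1 amount, from -0.36 (TMM and DESeq2 size factors) to -0.16. Shifts of that size could not turn these directions, nor could the 0 to 2 other-strand counts of these genes. Counts without strand gave no ratio, since each of these genes had 0 counts in at least 1 library, and gave mean levels of 0.296 CPM for Mir219a-1 and 0 for Mir338. Over all reads in the table, Mir338 was at 390 CPM. Detected genes past 2-fold numbered 188, against 325 with at least 1 count in each library required and 67 at 4-fold. These alternatives test more genes or ask a larger fold. With both strands summed the share of each pair was 50.0% at the Mir219a-2 and Mir338 pairs in both libraries, and 51.1% and 50.0% at the Mir219a-1 pair, since each read then counts for both genes.

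From 1 library alone, mean levels ranged from 119 to 4960 CPM for Mir219a-2, 765 to 1530 for Mir338 and 12.4 to 54.8 for Mir219a-1. No paired analysis was possible because there is 1 group. The scaling of the list counts was added after the data were seen. Depth limits Mir219b, Mir219c and Mir3065, whose counts of 0 to 2 do not show that they are absent.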

Other observations

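Predicted folds differed between the 6 hairpins, which also differ in length. The predicted minimum free energy was -18.8 kcal/mol for Mir219b (65 bases) against -48.2 for Mir219a-2 (97 bases), and -26.8 for Mir219c (60 bases) against -58.7 for Mir219a-1 (110 bases). For Mir3065 (87 bases) it was -39.0 against -41.9 for Mir338 (98 bases). Per base, the gap was largest for Mir219b, at -0.289 against -0.497 kcal/mol, and for Mir3065 the sign turned, at -0.448 against -0.428. Mir3065 had no more than 2 reads in a library. GC content was 69.1% for Mir219a-1, 55.7% for Mir219a-2 and 56.1% for Mir338.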
